A study of Mus musculus with 40 samples.

Results

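The 9 guanylate-binding protein (GBP) genes Gbp2, Gbp3, Gbp4, Gbp5, Gbp6, Gbp7, Gbp8, Gbp9 and Gbp10 are described here, out of 21950 genes in the RNA-seq table. They were chosen by their symbols, and all 9 had a row in the table. The family itself was selected on earlier results of the same libraries, in which the rise of Gbp10 in restimulated induced regulatory T cells (iTregs) was known, so the values of that comparison are given as a description without a test. Resting iTregs are the other side of that comparison, so calls of Gbp10 in them are not independent of the choice. Gbp6 shares much sequence with Gbp10, so its calls in resting and restimulated iTregs may not be independent either. The table covers 24 libraries of polyadenylated RNA from mouse CD4+ T cells, in 8 groups of 3. All mice carried a Foxp3 fluorescent reporter (Foxp3-GFP, or Foxp3-RFP for part of the iTreg work) on the C57BL/6 background, and all cells were from spleen.

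Conventional T cells (Tconvs) and thymus-derived regulatory T cells (tTregs, written nTreg in the labels) were sorted from mice aged 2 to 4 months, and each was taken either resting or activated. For iTregs, naive CD4+ Foxp3- CD62Lhi CD44lo cells of mice aged 6 weeks were stimulated for 4 days on plate-bound anti-CD3 and anti-CD28 with IL-2 and 2 ng/ml TGF-β. They were then sorted on the reporter and rested for 1 day with IL-2. iTregs were taken at rest, after restimulation through CD3 and CD28, or after restimulation with an inhibitor. One inhibitor is labelled only as an ORAI inhibitor and is named CM-4620 in the methods of the study. It blocks the calcium channel that refills the cell upon receptor signaling. The other was cyclosporine A (CsA), which blocks calcineurin and with it the nuclear entry of NFAT. The duration of stimulation before RNA extraction was not given in the sources used here. Nothing in the labels says that replicates came from separate mice or cultures, so p-values measure only the spread between these libraries, which may be technical.

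GBPs are large GTPases that interferons induce, above all interferon-γ. Once made, they assemble on vacuoles that hold pathogens and on bacteria in the cytosol, which exposes microbial products to inflammasomes. They are best studied in macrophages, but T cells carry interferon receptors and also express them. In the mouse the genes lie in a pair of clusters of recently duplicated copies.

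The 4 genes Gbp2, Gbp3, Gbp5 and Gbp7 lie on chromosome 3 on the plus strand, and the 5 genes Gbp4, Gbp6, Gbp8, Gbp9 and Gbp10 on chromosome 5 on the minus strand (GENCODE annotation of GRCm38). On chromosome 3 the order is Gbp5 (142493978 to 142522344), Gbp7 (142530342 to 142550149), Gbp3 (142560026 to 142573209) and Gbp2 (142620602 to 142638008). Gbp2b, a family member outside the 9, stands between Gbp3 and Gbp2. On chromosome 5, Gbp8 (105014150 to 105139540), Gbp9 (105077630 to 105139539) and Gbp4 (105115767 to 105139586) overlap and have 60 or 61 exon bases in common. Gbp10 (105215699 to 105239533) and Gbp6 (105270702 to 105293698) follow.

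Promoters of 4 members were in the RefSeq table of GRCm38.p6 used here (Gbp2, Gbp3, Gbp5 and Gbp7), and each is shown because the levels of these genes moved with activation. Each runs from 250 bases before to 50 bases after an annotated start, on the plus strand. Capitals mark matches, on either strand, to the gamma-activated site (GAS) TTCNNNGAA, an element of interferon-γ-induced genes, and to the interferon-stimulated response element (ISRE), taken as GAAA, any 2 bases and GAAA again, which interferon-regulated complexes and IRFs bind. Adjacent capitals in Gbp3 are 2 overlapping ISRE matches.
Gbp2, chr3:142620413-142620712: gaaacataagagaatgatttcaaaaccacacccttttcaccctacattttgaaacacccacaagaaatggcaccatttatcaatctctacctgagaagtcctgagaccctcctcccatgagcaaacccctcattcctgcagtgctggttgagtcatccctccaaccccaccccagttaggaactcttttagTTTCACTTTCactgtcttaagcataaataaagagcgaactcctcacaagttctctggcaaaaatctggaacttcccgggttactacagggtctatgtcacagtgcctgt
Gbp5, chr3:142496684-142496983: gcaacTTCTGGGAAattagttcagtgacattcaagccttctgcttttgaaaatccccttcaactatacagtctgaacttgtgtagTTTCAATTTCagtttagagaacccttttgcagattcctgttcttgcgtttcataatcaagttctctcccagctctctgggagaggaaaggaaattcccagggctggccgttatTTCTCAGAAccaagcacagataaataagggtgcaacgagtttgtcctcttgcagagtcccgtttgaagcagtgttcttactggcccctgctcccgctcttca
Gbp7, chr3:142530086-142530385: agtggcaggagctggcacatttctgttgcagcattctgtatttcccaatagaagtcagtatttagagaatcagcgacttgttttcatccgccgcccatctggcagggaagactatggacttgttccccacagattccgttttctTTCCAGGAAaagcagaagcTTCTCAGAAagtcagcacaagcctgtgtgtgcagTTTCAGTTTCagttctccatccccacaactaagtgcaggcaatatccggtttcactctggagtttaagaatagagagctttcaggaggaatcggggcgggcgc
Gbp3, chr3:142559794-142560093: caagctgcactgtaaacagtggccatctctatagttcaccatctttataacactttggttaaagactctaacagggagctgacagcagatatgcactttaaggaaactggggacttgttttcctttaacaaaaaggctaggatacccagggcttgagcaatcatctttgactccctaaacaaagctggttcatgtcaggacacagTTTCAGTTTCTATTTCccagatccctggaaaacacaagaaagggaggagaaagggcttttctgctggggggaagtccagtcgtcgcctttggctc

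The ISRE letters were found in all 4 promoters shown, at positions -59 in Gbp2, -165 in Gbp5, -53 in Gbp7, and -45 and -39 in Gbp3, counted from the start to the first base of the match. The same letters were in 3.45% of the 32544 distinct promoters of that length. A GAS match was found in Gbp5 and Gbp7, 2 in each, and in 8.33% of all promoters. The core of the NFAT site, GGAAAA, was found in Gbp7, where it overlaps the GAS match at position -106, and in Gbp3, and in 23.3% of all promoters. A further start of Gbp3 held none of the 3 motifs. These are matches of letters, not measured binding. Gbp4, Gbp6, Gbp8, Gbp9 and Gbp10 had no entry.

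Values are normalized counts, that is, reads on a gene divided by 1 size factor per library, as deposited by the authors. Libraries held 5256800 to 15685234 reads on genes, the tTreg groups being the shallowest, and 3 reads were worth 2.12 to 5.45 normalized counts. Differences are of log2(normalized count + 1), which understates changes of genes near the floor. They were tested with limma, and a gene was called higher or lower at a Benjamini-Hochberg adjusted p below 0.05, over all genes tested, together with an absolute log2 difference above 0.5. All 9 members passed the filter on low values (10 or above in 3 libraries), and the only value of theirs under 10 was that of Gbp10 in resting Tconv replicate 2. These are bulk samples, in which fewer expressing cells and less RNA per cell cannot be told apart. The T cell genes Cd3e, Cd3g and Cd4 summed to 9499 normalized counts or more in every library. The Treg genes Foxp3, Il2ra, Ctla4 and Ikzf2 summed to 20635 or more in tTregs, 12269 or more in iTregs, 5357 or less in activated Tconvs and 478 or less in resting Tconvs. Of other cell types, the macrophage and monocyte list (5 genes) summed to 7.79 to 34.7 in resting Tconvs and resting tTregs. In activated Tconvs it summed to 96.1 to 115, from Csf1r, Cd68 and Adgre1, with Lyz2 and Cd14 at 0. In activated tTregs it summed to 47.1 to 52.7, from Csf1r, Cd68 and Cd14, with Lyz2 and Adgre1 at 0. B cell genes (4 genes) summed to 89.0 to 136 in tTregs and to 44.3 or less in the other groups, with Ms4a1 at 0 in all. The part of these cells in the results was not tested.

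Near-identical copies limit what can be said of single members. Of all 50-base windows in the annotated transcripts of Gbp10, 84.1% also occurred in transcripts of another gene, and 73.3% in those of Gbp6. For Gbp6 the share was 70.7%, with 45.9% shared with Gbp10. An annotated readthrough transcript, Gm43302, spans both genes and takes in 46.3% of the exon bases of Gbp10 and 29.0% of those of Gbp6. Among the others the share of windows was 18.1% for Gbp8, 12.7% for Gbp7, 8.05% for Gbp9, 7.70% for Gbp4, 3.75% for Gbp3, 2.03% for Gbp2 and 1.44% for Gbp5. In Gbp7 most of it fell in a processed pseudogene, Gm43802, that lies over 11.3% of its exon bases, and the library preparation does not mark strand. The authors' counting divides shared reads by estimation, so the split between Gbp6 and Gbp10 is uncertain, and their sum is given for each group.

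**Figure D1:**
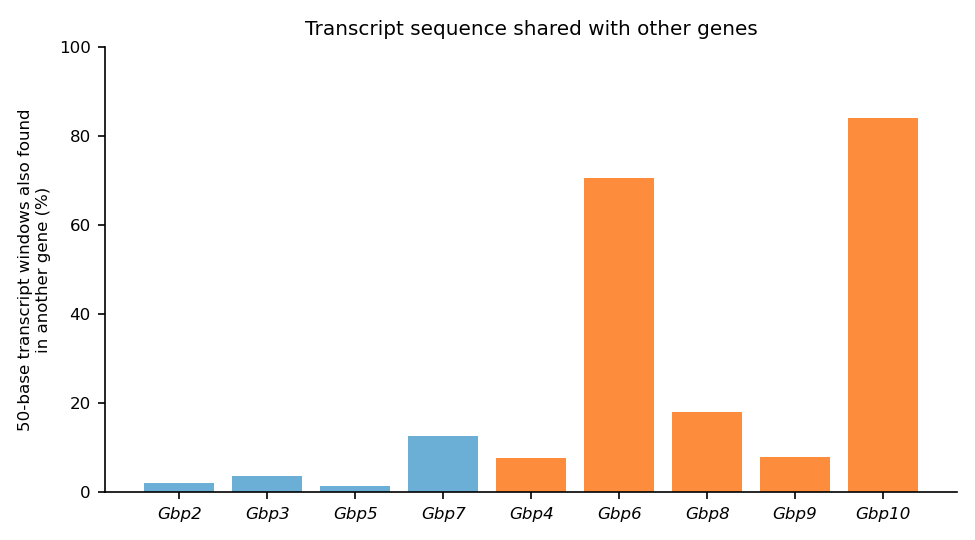
Share (%) of the 50-base windows in each gene's annotated transcripts that also occur in a transcript of another gene. Blue bars are the chromosome 3 members and orange bars the chromosome 5 members. Gbp10 (84.1%) and Gbp6 (70.7%) stand above all others, which lie between 1.44% and 18.1%.

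Activation of Tconvs raised all 9 genes, by 0.97 to 7.39 on the log2 scale. The rise was largest in Gbp10, Gbp2 and Gbp5 and smallest in Gbp7. As counts, the family went from 0.0519% ± 0.00160 to 0.736% ± 0.0414 (SD, n = 3) of all normalized counts in a library, and Gbp2 alone made up 65.0% ± 0.978 of the family's counts after activation against 11.8% ± 0.871 before it. Of the 11495 genes tested, 24.5% were called higher and 25.7% lower in this comparison. The median log2 difference was 2.75 over the 9 members and -0.04 over all genes tested.

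Gbp2, which coats vacuoles of intracellular parasites and bacteria, had normalized counts of 618, 680.0 and 621 in the resting Tconv libraries and 51598, 50946 and 55652 in the activated ones. No library of one group came near the other, and the ratio of the group means was 82.4. The log2 difference was 6.36 (limma, SE 0.12, adjusted p = 1.99e-14).

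Gbp5, known for promoting inflammasome assembly, had normalized counts of 35.0, 46.9 and 37.7 at rest and 2507, 2277 and 2431 after activation. All resting values were low and all activated values high. Its log2 difference was 5.89 (SE 0.14, limma adjusted p = 1.48e-13).

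Gbp10, one of the GTPases linked to macrophage resistance against intracellular bacteria, was near the floor in resting Tconvs, with 15.4, 8.44 and 14.9 normalized counts. After activation it reached 2338, 1993 and 2474. The ratio of means was 175, and the log2 difference was 7.39 (SE 0.32, limma adjusted p = 8.44e-11). Gbp6, its closest copy here and likewise linked to resistance of macrophages, had 515, 480.2 and 457 at rest and 6760.3, 6129 and 7157 after activation, a log2 difference of 3.78 (SE 0.18, adjusted p = 2.24e-10). Both groups of libraries were apart in both genes. Summed, Gbp6 and Gbp10 had 497 ± 30.2 at rest and 8950.2 ± 765 normalized counts after activation (mean ± SD, n = 3). Gm43302 had 0 to 6.57 at rest and 43.1 to 70.9 after activation.

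Gbp4, whose annotated start region overlaps those of Gbp8 and Gbp9, had 1473, 1439.7 and 1342 normalized counts at rest and 9669, 8837 and 10079.5 after activation. Its groups did not overlap and differed by 2.75 (log2, SE 0.16, limma adjusted p = 2.34e-09). Gbp8 went from 678, 597 and 624 to 1800.3, 1726 and 2066 and Gbp9 from 940.0, 869 and 959 to 2405, 2075 and 2452. These were smaller rises on the log2 scale, 1.55 and 1.32 (adjusted p = 1.51e-06 and 4.99e-05), again with no overlap. Gbp3 rose from 209.8, 198 and 248 to 1268, 1107 and 1367, a difference of 2.51 (adjusted p = 5.93e-08). Gbp7, linked to assembly of the phagocyte oxidase, rose from 1118, 1019 and 1059 to 2115, 2027 and 2131, with 0.97 the smallest log2 difference of the 9 (SE 0.16, adjusted p = 0.000108).

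**Figure D2:**
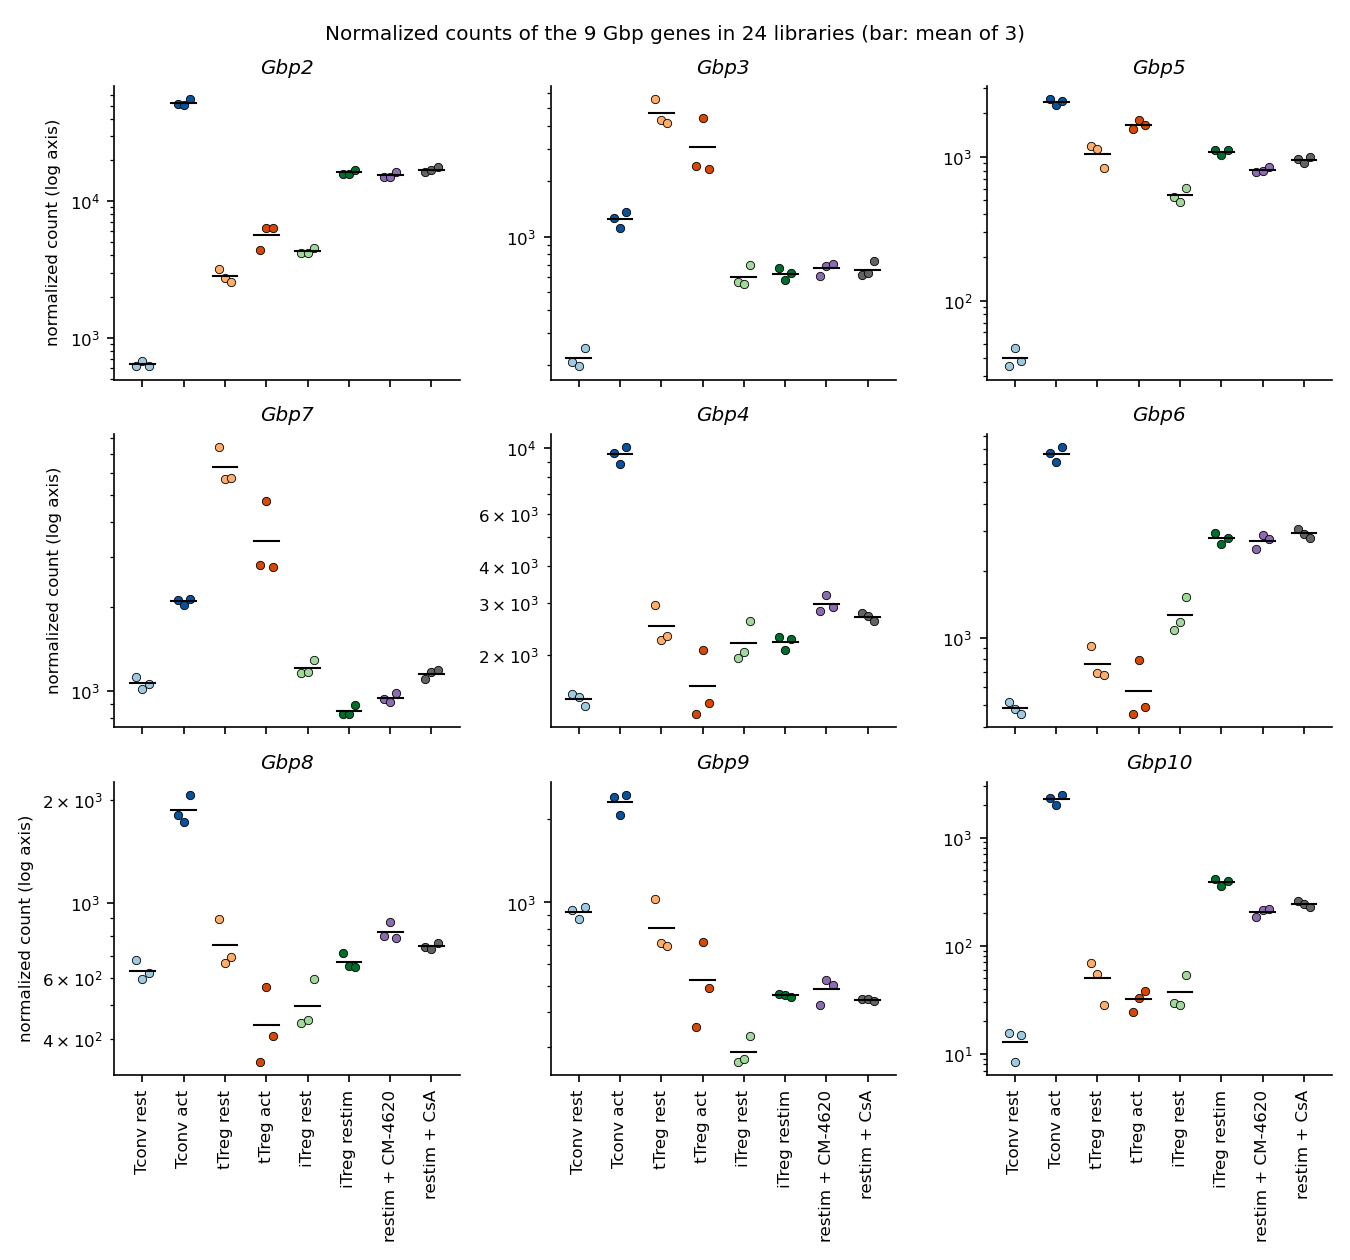
Normalized counts (log axis) of each member in the 8 groups, with 1 point per library (n = 3) and a bar at the mean. Activated Tconvs were the highest group for all members except Gbp3 and Gbp7, whose highest values were in resting tTregs.

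In tTregs the family did not move as a whole upon activation. Gbp2 and Gbp5 rose, Gbp3, Gbp4, Gbp7, Gbp8 and Gbp9 fell, and Gbp6 and Gbp10 did not pass the test. Of all genes tested, 11.9% were called higher and 10.0% lower, against 2 and 5 of the 9 members. The median log2 difference was -0.67 over the members and 0 over all genes tested.

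Gbp2 had 3185, 2756 and 2541 normalized counts in resting tTregs and 4413, 6341 and 6319 in activated ones, with no overlap, a log2 difference of 1.00 (SE 0.12, limma adjusted p = 4.18e-05). Gbp5 had 1183, 1135 and 829 and 1554, 1803 and 1655, which also did not overlap, and differed by 0.69 (SE 0.14, adjusted p = 0.00173). Both genes were therefore higher after activation in every library.

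Gbp7 had 7428, 5718 and 5763 normalized counts at rest and 2805, 4758 and 2768 after activation, a log2 difference of -0.91 (SE 0.16, adjusted p = 0.00074). Gbp3 had 5557, 4291 and 4152 and 2402, 4408 and 2331, a difference of -0.67 (SE 0.20, adjusted p = 0.0199). In both genes activated replicate 2 was far above replicates 1 and 3, and in Gbp3 it lay within the range of the resting libraries. Gbp4 had 2958, 2242 and 2319 at rest and 1264, 2083 and 1382 after activation (-0.69, adjusted p = 0.00497), and Gbp8 had 894, 667 and 694 and 342, 567 and 407 (-0.80, adjusted p = 0.00254). Neither overlapped between groups, and replicate 2 was again the highest activated library. Gbp9 had 1026, 712 and 694 and 354, 721 and 490.4 (-0.67, adjusted p = 0.0201), with replicate 2 inside the resting range.

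Gbp6 had 914, 693 and 681 normalized counts in resting and 455, 792 and 490.4 in activated tTregs, a log2 difference of -0.43 with a 95% interval of -0.82 to -0.04 (limma adjusted p = 0.083). Gbp10 had 68.9, 54.5 and 28.5 and 24.2, 33.1 and 38.1, a difference of -0.59 with an interval of -1.28 to 0.11 (adjusted p = 0.176). Their libraries overlapped between the groups, and their sum was 813 ± 148 and 611 ± 187 (mean ± SD, n = 3). The number of falls depended on single libraries and on the fit. It was 6 without activated replicate 2, when Gbp6 was called lower at -0.68, and 6 without resting replicate 3, when Gbp10 was called lower at -0.95. It was 3 without resting replicate 1, without activated replicate 1 or without activated replicate 3, when Gbp3 and Gbp9 were no longer called. It was also 3 in a fit of the tTreg groups alone, where Gbp3 (limma adjusted p = 0.093) and Gbp9 (0.11) were not called. The main fit pools the spread with quieter groups. The chi-square of reads per degree of freedom between replicates was 12.7 to 36.3 in tTregs and 3.01 to 9.36 in Tconvs.

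The activation responses of the 2 cell types differed in all 9 members when the difference itself was tested. Every member responded less, or in the opposite direction, in tTregs, and the differences of the log2 responses (tTreg minus Tconv) ran from -1.88 in Gbp7 to -7.97 in Gbp10. That of Gbp2 was -5.37 (SE 0.17, limma adjusted p = 2.64e-11) and that of Gbp5 -5.20 (SE 0.20, adjusted p = 1.1e-10). The largest adjusted p of the 9 was 7.81e-05, in Gbp9. Among all genes tested, 17.0% had a lower and 17.7% a higher response in tTregs. Leaving out any 1 library left 9 of 9 members called lower. The differences of the other members were -4.21 in Gbp6, -3.44 in Gbp4, -3.18 in Gbp3, -2.35 in Gbp8 and -1.99 in Gbp9 on the same scale.

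**Figure D3:**
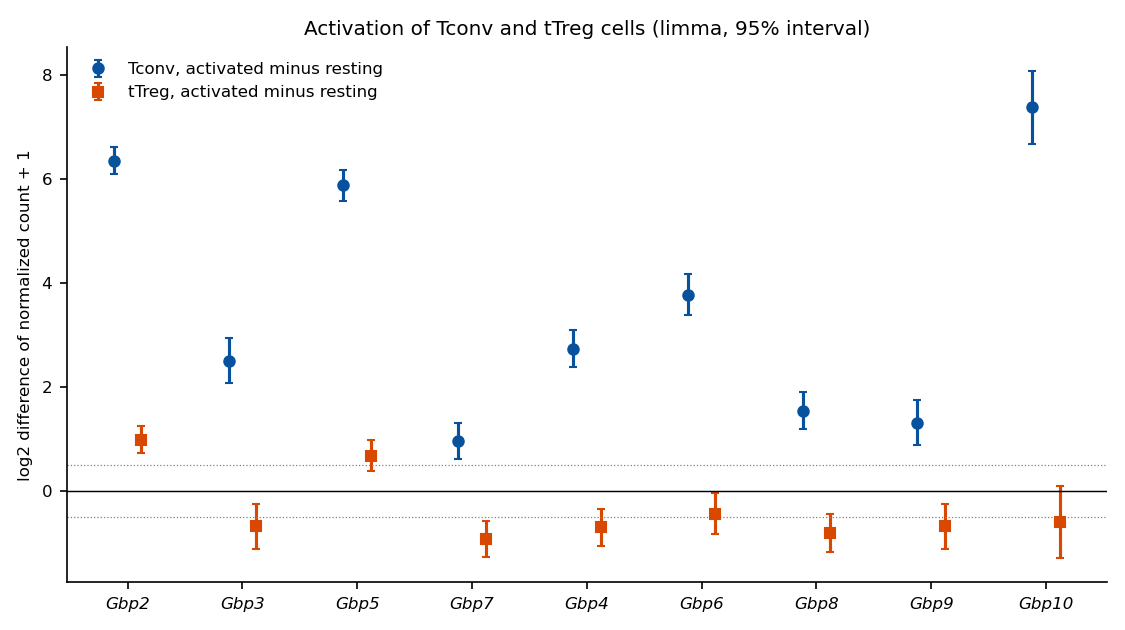
Log2 difference of normalized count + 1, activated minus resting, for each member in Tconvs (circles) and tTregs (squares), with limma's 95% interval. Dotted lines mark the 0.5 threshold on both sides. All Tconv values lie above it, from 0.97 to 7.39, and all tTreg values lie between -0.91 and 1.00.

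Resting tTregs already held more of most members than resting Tconvs. Gbp2, Gbp3, Gbp4, Gbp5, Gbp6, Gbp7 and Gbp10 were called higher, 7 of 9, and none lower, where 20.5% of all genes tested were called higher and 18.2% lower. The largest differences were in Gbp5, 4.68 on the log2 scale (SE 0.14, limma adjusted p = 1.33e-12), and Gbp3, 4.40 (SE 0.20, adjusted p = 1.71e-10). As ratios of means these were 26.3 and 21.4, from the libraries given above, and the groups did not overlap in either gene. Gbp7 was higher by 2.55 and Gbp2 by 2.14. Gbp10 was higher by 1.84 (adjusted p = 0.000247), at values of 68.9, 54.5 and 28.5 in tTregs that remain low beside activated Tconvs. Gbp4 differed by 0.81 and Gbp6 by 0.64. The sum of Gbp6 and Gbp10 was 813 ± 148 in resting tTregs against 497 ± 30.2 in resting Tconvs (mean ± SD, n = 3). Gbp8 differed by 0.24 (95% interval -0.13 to 0.60, adjusted p = 0.262) and Gbp9 by -0.21 (95% interval -0.65 to 0.23, adjusted p = 0.415), and neither passed.

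Between the activated groups the order was mostly turned round. Gbp2, Gbp4, Gbp5, Gbp6, Gbp8, Gbp9 and Gbp10 were lower in activated tTregs than in activated Tconvs, 7 of 9, and Gbp3 and Gbp7 were higher. Among all genes 22.6% were lower and 25.6% higher. Gbp10 was lower by the widest margin, with a log2 difference of -6.13 (SE 0.32, limma adjusted p = 1.08e-09), and its sum with Gbp6 was 611 ± 187 normalized counts against 8950.2 ± 765 (mean ± SD, n = 3). Gbp3 was higher by 1.23 (adjusted p = 0.000105) and Gbp7 by 0.67 (adjusted p = 0.00249). Without activated tTreg replicate 2 Gbp7 had 0.41 and was not called. Gbp5, at -0.53, stood at the threshold and was not called without activated Tconv replicate 1 (-0.50) or activated tTreg replicate 1 (-0.48).

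Resting iTregs stood between resting and activated Tconvs for most of the family. Against resting Tconvs, Gbp2, Gbp3, Gbp4, Gbp5, Gbp6 and Gbp10 were higher, 6 of 9, and Gbp9 was lower, with 32.8% of all genes higher and 30.8% lower. The call of Gbp10 is not independent of the choice of the family, which used the resting iTreg libraries. The call of Gbp6, which shares sequence with Gbp10, may not be either. Gbp5 differed most, by 3.73 on the log2 scale (SE 0.14, limma adjusted p = 4.7e-12), with 524, 487 and 605 normalized counts in resting iTregs. Gbp2 had 4165, 4136 and 4560.1, higher by 2.74 (adjusted p = 3.93e-11), and all 3 iTreg libraries were above the Tconv range in both genes. Gbp9 had 265, 271 and 328, below every resting Tconv library, and differed by -1.68 (SE 0.20, adjusted p = 2.65e-06). Gbp7 and Gbp8 did not pass, at 0.18 (95% interval -0.17 to 0.52) and -0.35 (95% interval -0.72 to 0.01). Gbp4 (0.62) was not called without iTreg replicate 3 (0.49).

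Against activated Tconvs, all 9 members were lower in resting iTregs and none higher, beside 18.7% of all genes lower and 22.9% higher. Here too Gbp10 is counted although the resting iTreg libraries took part in its choice. Quantile normalization, which forces equal distributions on the libraries, turned that split of all genes from 2150 lower and 2634 higher to 2835 lower and 2095 higher, and left 9 of 9 members lower. The log2 differences of the members ran from -0.80 in Gbp7 to -5.96 in Gbp10. Gbp9, at -3.00, and Gbp2, at -3.62, were next to Gbp10 in size. The sum of Gbp6 and Gbp10 in resting iTregs was 1296 ± 242 normalized counts (mean ± SD, n = 3), above the 497 ± 30.2 of resting and below the 8950.2 ± 765 of activated Tconvs.

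The 2 kinds of resting Treg differed in which members they held. Gbp2 (0.61, adjusted p = 0.000439) and Gbp6 (0.72, adjusted p = 0.00244) were higher in iTregs than in tTregs on the log2 scale, and Gbp3, Gbp5, Gbp7, Gbp8 and Gbp9 were lower. These were 2 and 5 of 9, beside 32.3% of all genes higher and 31.1% lower. Gbp3 was lower by the widest margin, -2.94 (SE 0.20, limma adjusted p = 5.53e-09), followed by Gbp7, -2.38 (SE 0.16, adjusted p = 5.31e-09). Their values in resting iTregs were 564, 549.8 and 703 and 1155, 1167 and 1288, all below every tTreg library. Gbp4 (-0.19, 95% interval -0.54 to 0.16) and Gbp10 (-0.41, 95% interval -1.11 to 0.28) did not pass. Gbp6 and Gbp10 summed to 1296 ± 242 normalized counts in iTregs and 813 ± 148 in tTregs (mean ± SD, n = 3). Without resting tTreg replicate 3 Gbp10 was called lower at -0.77, a call not independent of the choice of the family. Without resting tTreg replicate 1 Gbp8 was not called (-0.46).

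Upon restimulation of iTregs, the comparison whose result for Gbp10 was known when the family was chosen, the members differed widely. In this description 5 members lay more than 0.5 above resting iTregs on the log2 scale (Gbp2, Gbp5, Gbp6, Gbp9 and Gbp10) and 1 more than 0.5 below (Gbp7), where by the same fold limit alone 9.01% of all genes were higher and 8.21% lower. The median over the 9 was 0.68, with 8 differences above 0 and 1 below. Gbp7 stood at the limit and lay inside it under edgeR (-0.494), DESeq2 (-0.499), own size factors (-0.497) and quantile normalization (-0.497). It also lay inside without restimulated replicate 1 or 2 (both -0.49). Without resting iTreg replicate 3, Gbp7 was inside the limit (-0.45) and Gbp8 above it (0.58). Nothing is read from these counts, since the choice of the family used this comparison.

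Gbp10 had 29.5, 28.2 and 53.1 normalized counts in resting and 409.9, 357 and 394 in restimulated iTregs, a ratio of means of 10.5. All restimulated libraries were far above all resting ones. Gbp2 had 4165, 4136 and 4560.1 and 15852, 15932 and 16958 (log2 difference 1.92), and Gbp6 had 1085, 1175 and 1518 and 2935, 2635 and 2800.0 (1.16). Neither overlapped between the groups. Gbp5 went from 524, 487 and 605 to 1107, 1024 and 1108 (1.01) and Gbp9 from 265, 271 and 328 to 465, 464 and 454 (0.68). Gbp7 moved the other way, from 1155, 1167 and 1288 to 826, 828 and 889, a log2 difference of -0.50, also without overlap. Gbp8 differed by 0.44 without overlap. Gbp3, at 0.06, and Gbp4, at 0.02, overlapped between the groups. Even after restimulation every member stayed below its level in every activated Tconv library.

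**Figure D4:**
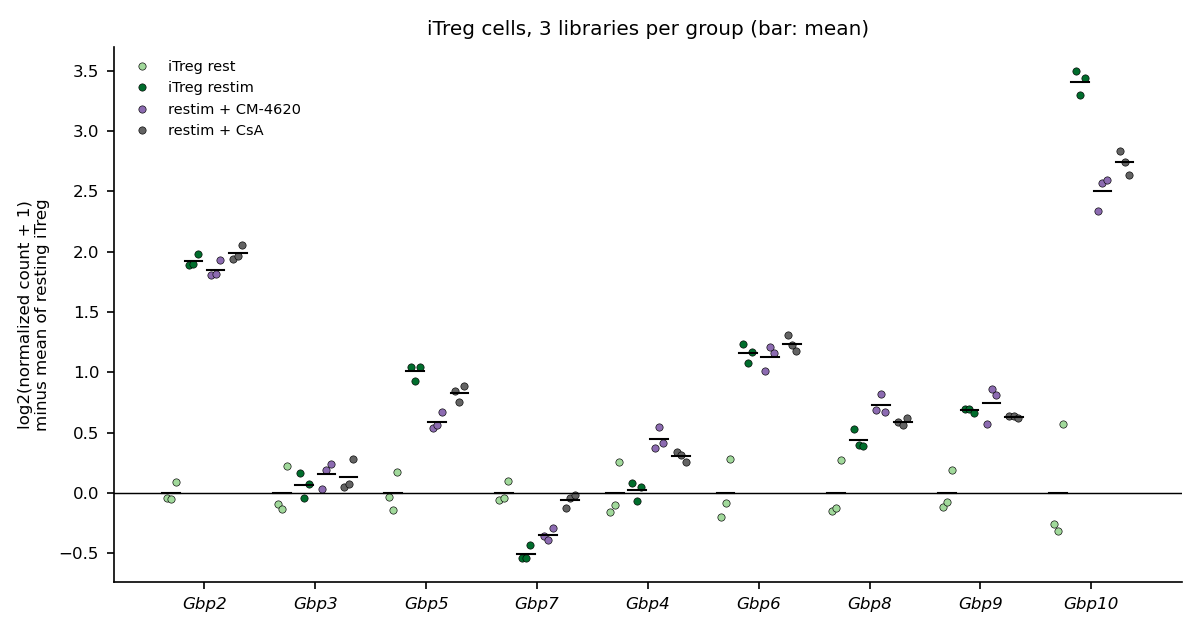
Log2(normalized count + 1) of each member in the 4 iTreg groups, with the mean of resting iTregs subtracted, 1 point per library (n = 3) and a bar at the mean. Gbp10 has the highest points after restimulation, and its points with either inhibitor lie between those of resting and restimulated iTregs.

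Neither inhibitor moved a member past both limits, over the 8 members tested. Few of all genes were called with either inhibitor, so these counts show nothing particular to the members. With CM-4620, 0 of 8 were called higher and 0 lower, beside 1.50% and 1.79% of all 11105 genes tested. At both limits, edgeR and DESeq2 also called 0 in both directions. At an unadjusted p below 0.05 and no fold limit, limma had 3 higher and 1 lower. The share of all genes at that p was not counted, so nothing is read from these numbers. Gbp4 had 2305, 2083 and 2259.6 normalized counts in restimulated iTregs and 2823, 3187 and 2915 with CM-4620, which did not overlap, and differed by 0.42 (SE 0.09, adjusted p = 0.00843), under the 0.5 limit. Gbp5 had 1107, 1024 and 1108 and 780.4, 794 and 854, likewise without overlap, and differed by -0.42 (SE 0.08, adjusted p = 0.00403). Gbp2 stayed close, with 14997, 15060.5 and 16315, a difference of -0.07 and a 95% interval of -0.19 to 0.05. The interval was -0.24 to 0.18 for Gbp6, -0.12 to 0.31 for Gbp3, 0.02 to 0.29 for Gbp7, 0.08 to 0.50 for Gbp8 and -0.13 to 0.26 for Gbp9.

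With CsA, again 0 of 8 members were called higher and 0 lower, beside 1.57% and 1.35% of all genes. At both limits, edgeR and DESeq2 also called none. Limma had 2 higher and 1 lower at an unadjusted p below 0.05 and no fold limit. The share of all genes at that p was not counted here either, so nothing is read from these numbers. Gbp7 had 826, 828 and 889 normalized counts in restimulated iTregs and 1102, 1168 and 1188 with CsA, which overlapped the 1155, 1167 and 1288 of resting iTregs. The difference from restimulated iTregs was 0.44 (SE 0.06, limma adjusted p = 0.000608), under the 0.5 limit. For Gbp2 the difference was 0.07 with a 95% interval of -0.06 to 0.19, for Gbp5 -0.18 (-0.35 to -0.01) and for Gbp6 0.07 (-0.14 to 0.29). The intervals of Gbp3, Gbp4, Gbp8 and Gbp9 were -0.14 to 0.29, 0.09 to 0.48, -0.06 to 0.36 and -0.25 to 0.15.

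Gbp10 was not tested against restimulated iTregs, since those libraries had brought it to notice. It had 183, 216 and 219 normalized counts with CM-4620 and 259.6, 243 and 226 with CsA, all below the 409.9, 357 and 394 of restimulated iTregs and all above resting iTregs. The log2 differences from restimulated iTregs were -0.91 and -0.67, given as a description. The sum of Gbp6 and Gbp10 was 1296 ± 242 at rest, 3177 ± 177 after restimulation, 2932 ± 212 with CM-4620 and 3181 ± 154 with CsA (mean ± SD, n = 3). Gm43302, which takes in exons of both, had 40.1, 8.07 and 0 in resting iTregs and 0 to 4.03 in restimulated ones. It had 0 in all libraries with CM-4620, and with CsA 58.4 in replicate 3 and 0 in replicates 1 and 2. In resting replicate 1 it was above the 29.5 of Gbp10, and the division of reads between them was not tested.

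Between the inhibitors, 0 of 9 members were higher and 0 lower with CM-4620 than with CsA, beside 0.0991% and 0.261% of all genes. At both limits, edgeR and DESeq2 also called none. At an unadjusted p below 0.05 and no fold limit, limma had 0 higher and 3 lower. Without the share of all genes at that p, which was not counted, nothing is read from these numbers. Gbp7 differed most, by -0.29 (95% interval -0.42 to -0.15, limma adjusted p = 0.0551), and its libraries did not overlap between the inhibitors. Gbp10 differed by -0.24 (95% interval -0.63 to 0.15, adjusted p = 0.665), although its libraries did not overlap either.

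Per kb of exon, which allows levels to be compared between genes, Gbp2 led in activated Tconvs at 20959 ± 1013 normalized counts per kb, followed by Gbp4 at 1271 ± 84.5 and Gbp6 at 1122 ± 87.1 (mean ± SD, n = 3). In resting tTregs the leading genes were Gbp3 at 1429 ± 237, Gbp2 at 1124 ± 130.3 and Gbp7 at 1123 ± 174, and their ranges of mean ± SD overlapped. In resting iTregs Gbp2 led again at 1704 ± 94.1, with Gbp4 at 294 ± 47.7 next, and after restimulation it reached 6458 ± 245. Gbp10 was the lowest per kb in resting tTregs, at 13.1 ± 5.30, and in resting iTregs, at 9.54 ± 3.62. With the longest annotated transcript as the length, Gbp2 still led in activated Tconvs and Gbp3 in resting tTregs.

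**Figure D5:**
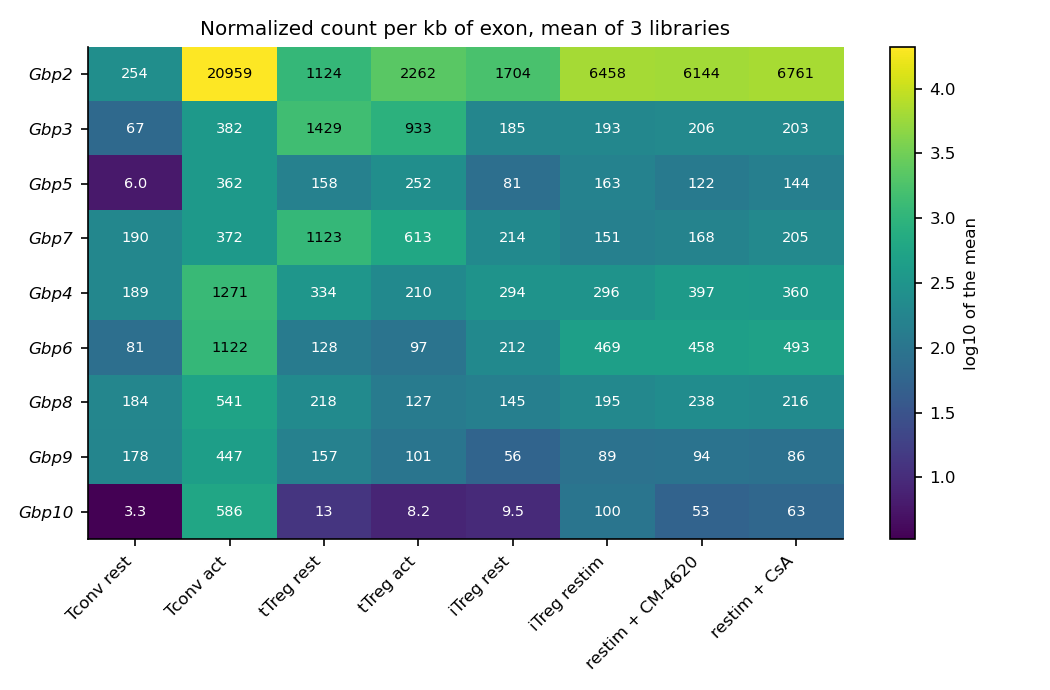
Normalized count per kb of exon (mean of 3 libraries, color on a log10 scale) for each member and group. Gbp2 has the highest value in activated Tconvs (20959), and Gbp3, Gbp2 and Gbp7 lead in resting tTregs.

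The members did not share 1 pattern over the 24 libraries. Pearson correlations of log2 values ran from -0.34 (Gbp6 with Gbp7) to 0.95 (Gbp6 with Gbp10), with a median of 0.50 over 36 pairs. Gbp3 and Gbp7, neighbors on chromosome 3, had 0.90, and Gbp4 and Gbp8 had 0.93. These are descriptions over libraries that share groups, and Gbp6 with Gbp10 share reads. Gbp3 with Gbp7 (3.75% of the windows of Gbp3) and Gbp4 with Gbp8 (6.61% of the windows of Gbp8) also share sequence. Among 11716 other genes, the most like the mean profile of the family were Dtx3l (r = 0.95), an interferon-induced ubiquitin ligase, Cwc27 (0.93), a spliceosome-associated cyclophilin, Ifi35 (0.92), an interferon-induced protein, Ifi47 (0.91), an immunity-related GTPase, and Selp (0.91), which encodes P-selectin.

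Other genes of interferon signaling were counted in a list of 25, of which 24 were in the table and tested. The list held the ligand Ifng, receptors, kinases, transcription factors, inhibitors and target GTPases. It was not confined to interferon-γ, since Ifnar1, Ifnar2, Tyk2, Stat2 and Irf9, which serve type I interferons, were counted too. In Tconvs upon activation 19 were higher and 2 lower, where 24.5% and 25.7% of all genes tested were. In tTregs the counts were 2 and 4, beside 11.9% and 10.0% of all genes. The difference in response (tTreg minus Tconv) was below 0 for 16 and above 0 for 2, beside 17.0% and 17.7% of all genes, and both of the latter, Ifngr1 among them, had fallen in Tconvs. The low genes Ifng and Gbp2b are among those counted, and they passed the filter through the groups in which they were high. Without them the counts over 22 genes were 17 and 2 in Tconvs, 2 and 4 in tTregs, and 14 and 2 for the difference. Among the ligand and receptors, Ifng, which encodes interferon-γ, was low everywhere, at 4.85 ± 3.50 in resting and 30.8 ± 6.11 normalized counts in activated Tconvs (mean ± SD, n = 3), given without a test. It had 0.315 ± 0.546 in activated tTregs. Ifngr1, the ligand-binding receptor chain, had 8911 ± 260.0 in resting and 1253 ± 46.2 in activated Tconvs, a fall (-2.83, limma adjusted p = 2.58e-13). In tTregs it was higher, 28077 ± 1533 at rest and 17166 ± 1159 after activation. Ifngr2, the signaling chain, did not pass with Tconv activation (0.08, 95% interval -0.67 to 0.84).

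Irf1, a transcription factor induced by interferon-γ, rose by 2.02 in Tconvs (limma adjusted p = 2.01e-10) and in tTregs had 0.16 (adjusted p = 0.21).

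The immunity-related GTPases, which act beside GBPs on pathogen vacuoles, rose with them in Tconvs. Irgm1 rose by 4.53 on the log2 scale, from 257 ± 10.5 to 5995 ± 721 normalized counts (limma adjusted p = 2.07e-12), Iigp1 by 4.73 (adjusted p = 2.07e-12) and Igtp by 2.67 (adjusted p = 2.68e-10). In tTregs Iigp1 fell (-0.66, adjusted p = 0.0034), and Irgm1 (-0.26) and Igtp (0.13) did not pass. Resting Tconvs and tTregs did not differ past the limits in Irgm1 (0.16, 95% interval -0.14 to 0.47) or Igtp (-0.01, 95% interval -0.29 to 0.27), and Iigp1 was higher in resting tTregs (0.58, adjusted p = 0.00427). Of the other immunity-related GTPases in the list, named here after their values were seen, Ifi47 was higher (0.73), Tgtp1 (-0.59) and its near-identical copy Tgtp2 (-0.84) were lower, and Irgm2 (0.11) did not pass. The split of reads between Tgtp1 and Tgtp2 is uncertain.

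Gbp2b, the family member between Gbp3 and Gbp2, had a pattern of its own. Resting tTregs had 499, 398 and 326 and activated tTregs 195, 255 and 318 normalized counts, and every Tconv and iTreg library had 19.4 or less. Resting Tconvs had 1.03, 1.88 and 0, which is 3 reads in all over the group, so no fold is given. Gbp11 had no row here.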

How the data were processed

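RNA was prepared by the authors with a modified SMART-seq2 protocol, which does not mark strand. Per the study's methods, reads were trimmed with cutadapt 1.18, aligned to mm10 (GRCm38) with STAR 2.5.3, and counted on genes with RSEM 1.3.0, and differential expression was estimated in DESeq2 1.26. The deposited signal is normalized: reads per gene over 1 size factor for each library, as its values show. The tool that scaled it is not given in the sources used here. In units of the smallest nonzero value of a library, 100% of values were whole (tolerance 0.01), and these recovered reads served for depth and for edgeR and DESeq2.

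A gene entered the test if 3 or more libraries had a value of 10 or above. The test was limma 3.58.1 (trend, R 4.3.3) on log2(normalized count + 1), in 1 fit of 15 libraries (Tconv, tTreg and resting iTreg, 11495 genes) and 1 of 12 (iTreg, 11105 genes). Limits were an adjusted p of 0.05 and a log2 difference of 0.5, which the methods give for DESeq2. Intervals are limma's, at 95%. The fit was tested on simulated data with equal dispersion in all groups, for Tconv activation and CM-4620 only. The larger spread of the tTreg libraries was not simulated. The members, the pathway and marker lists, and the tests were chosen with earlier results of these data known. All members are named, with the pathway genes Ifng, Ifngr1, Ifngr2, Irf1, Irgm1, Igtp, Iigp1, Gbp2b and Gbp11 and the 5 genes most like the family's mean profile. A further pathway gene of the rule is not reported here. Alternatives were pseudocounts of 0.1 and 5, no filter, a filter of 100, other scalings, fits of only the groups compared, a replicate block, each library left out, other limits, edgeR 4.0.16 and DESeq2 1.42.0. Positions and transcripts were from GENCODE vM21, promoters from RefSeq. Floors cover counting error only. The chromatin samples were not analysed here.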

Additional observations from a re-analysis of the deposited data

Results flagged for a closer look

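The response to activation differed between tTregs and Tconvs in every member, by the test of the difference itself (limma, adjusted p below 0.05). The differences of the log2 responses, tTreg minus Tconv, were -7.97 in Gbp10, -5.37 in Gbp2, -5.20 in Gbp5, -4.21 in Gbp6, -3.44 in Gbp4, -3.18 in Gbp3, -2.35 in Gbp8, -1.99 in Gbp9 and -1.88 in Gbp7. In Tconvs all 9 responses were above 0, and in tTregs only those of Gbp2 and Gbp5 were. Activated Tconvs also had the highest macrophage and monocyte sums (96.1 to 115 normalized counts) and tTregs the highest B cell sums. Resting Tconvs had the highest CD8 T cell sums (223 to 236) and NK cell sums (19.3 to 30.9). The part of all these cells was not tested. Groups of 3 are too small for a test of single libraries that stand apart.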

How the results depend on the processing

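Of 1976 values of single members under the alternatives, 1932 counted as unchanged. For tested values that means the same call or lack of one, and for untested values a move of under 1 SD. Another 34 lost a call, 6 gained one and 0 changed direction with a call. The other 4 were restimulation values of Gbp4, Gbp6, Gbp8 and Gbp10, which moved by over 1 SD without resting iTreg replicate 3. edgeR, DESeq2 and the replicate block left all 108 values each unchanged in this sense. The untested restimulation value of Gbp7 still crossed to inside the 0.5 limit under edgeR (-0.494) and DESeq2 (-0.499). The block left every count of members as it was (for example 9 higher in Tconvs, 2 higher and 5 lower in tTregs). In no comparison was the correlation of same-numbered libraries over 0.1 in every pair. With 3 pairs each, this cannot decide whether the numbers pair the libraries. In 5 of 11 comparisons every sample correlated best with its own number, a hint from the data only. A limit of 1 on the log2 difference gave 0 members higher and 0 lower on tTreg activation, 1 higher in activated tTregs than activated Tconvs, and 0 higher and 3 lower in resting iTregs than resting tTregs. A fit of only the groups compared gave 3 members lower on tTreg activation. Quantile normalization, which moved the median of all genes by -0.12, -0.11 and -0.10 in the 3 comparisons of resting iTregs, gave 1 member higher than in resting tTregs, Gbp2 being lost at 0.34, and also lost Gbp4 against resting Tconvs (0.46) and Gbp5 between activated groups (-0.49). By adjusted p alone CM-4620 had 1 member higher and 1 lower than restimulated iTregs, and CsA 1 higher. Leaving out 1 library gave 3 to 6 members lower on tTreg activation, 1 to 2 higher between activated groups, and a median restimulation difference of 0.63 to 0.78. Of the pathway list, Ifnar2 turned from 0.13 to -0.56 (resting iTregs minus resting tTregs, adjusted p = 0.000561) without resting tTreg replicate 1, against 0.48 without replicate 2. Where no cause is named it was not tested. With the longest transcript as length, 35 of 72 levels per kb moved by over 1 SD. Depth limits Gbp10 in resting Tconvs, where 3 reads are worth up to 3.09 normalized counts.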
